A study of Mus musculus with 46 samples.

Results

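Resident liver macrophages (Kupffer cells), recruited monocytes and macrophages in general were followed through 9 marker genes, taken as a given list of mouse symbols and joined to the 55487 gene identifiers of the count tables. The list holds 5 markers of resident Kupffer cells (Clec4f, Timd4, Vsig4, Marco and Cd5l) and 4 markers shared by macrophages or carried by recruited cells (Adgre1, Csf1r, Ly6c2 and Lyz2). Liver RNA and RNA of white adipose tissue (WAT) were sequenced from wild-type C57BL/6 mice of both sexes. All groups, controls included, had been made obese by 21 weeks on a high-fat diet that began at 7 weeks of age. PTP-r, a code name in a series about a mixed-chirality peptide directed at prohibitin, was injected under the skin at 1 mg/kg per day for 5 weeks from week 16. Controls received vehicle (phosphate-buffered saline) the same way. In each organ every group had 6 libraries apart from vehicle males with 5, and a library is called by its title number. The fat depot is not labelled. Nothing in the labels ties a library to its own mouse, and the spread behind each p-value is that between libraries.

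Kupffer cells sit in the liver sinusoids, where they take up particles, bacteria and aged red cells from portal blood. They are seeded before birth and largely maintain themselves, and when some are lost, circulating Ly6C-high monocytes enter the liver and take on the Kupffer programme step by step. Timd4 is acquired late by such newcomers, and Clec4f marks Kupffer cells almost alone among mouse macrophages. In obese fat the macrophages are mostly of another kind, with high Lyz2, Csf1r and Adgre1. In bulk RNA, more cells of a type and more RNA per cell cannot be told apart.

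Liver libraries held 20266425 to 57518893 counts on genes and WAT libraries 20991069 to 32219751. The organ labels matched their markers: 6 hepatocyte genes summed to 94947 CPM or more (counts per total of the library, brought to the usual common total) in every liver library and to 579 CPM or less in every WAT library, and 7 adipocyte genes reached 18273 CPM or more in every WAT library. A total of 10 libraries held raised markers of muscle, pancreas, epididymis or B and plasma cells, called other-tissue markers here. In liver these were all from females, and female vehicle library 10 passed the limit for B and plasma cell genes (290 CPM). Liver male PTP-r library 11 (163 CPM of those genes) stayed under that limit, 4 times the organ's median. So did WAT male PTP-r library 7 (3537 CPM). That WAT library stood apart for lymphocyte genes and some results are given without it. All 9 markers passed the expression filter in liver. In WAT 8 passed, and Clec4f did not.

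All 9 genes are protein coding, and the annotation on GRCm38 places Clec4f on chromosome 6 (83644542 to 83656187), Timd4 on 11 (46810800 to 46844332), Vsig4 on X (96247203 to 96293438), Marco on 1 (120474538 to 120505024) and Cd5l on 3 (87357881 to 87371073). Adgre1 lies on chromosome 17 (57358691 to 57483527), Csf1r on 18 (61100598 to 61132149), Ly6c2 on 15 (75108158 to 75111970) and Lyz2 on 10 (117277331 to 117282321). The promoters of the 4 genes that rose in male liver are shown with that of Clec4f, which did not pass there. Each is the stretch just before the outermost annotated start, read 5′ to 3′ on the gene's strand, from RefSeq on GRCm38.p6. It is 250 bases long except for Lyz2 (201 bases) and Clec4f (179 bases), where the table's window begins closer to that start. Of the 9 members, 7 matched the promoter table; Adgre1 and Csf1r are named only. Capitals mark matches, on either strand, to GAGGAA, the core bound by the macrophage factor PU.1.
Ly6c2 (chr15:75111972-75112221, minus strand): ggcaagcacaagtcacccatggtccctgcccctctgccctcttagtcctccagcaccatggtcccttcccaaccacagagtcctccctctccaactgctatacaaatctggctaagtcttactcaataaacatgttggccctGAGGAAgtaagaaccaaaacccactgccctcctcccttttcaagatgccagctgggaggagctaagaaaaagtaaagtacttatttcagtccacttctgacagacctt
Marco (chr1:120505025-120505274, minus strand): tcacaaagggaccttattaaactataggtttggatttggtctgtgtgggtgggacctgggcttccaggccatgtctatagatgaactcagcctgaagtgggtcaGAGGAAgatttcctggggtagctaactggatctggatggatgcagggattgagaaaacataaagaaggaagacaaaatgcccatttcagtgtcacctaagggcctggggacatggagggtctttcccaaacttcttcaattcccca
Lyz2 (chr10:117282322-117282522, minus strand): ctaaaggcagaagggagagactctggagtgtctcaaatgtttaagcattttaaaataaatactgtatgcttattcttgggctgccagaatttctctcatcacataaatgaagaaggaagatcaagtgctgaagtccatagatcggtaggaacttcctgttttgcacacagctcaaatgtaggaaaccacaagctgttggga
Cd5l (chr3:87357631-87357880, plus strand): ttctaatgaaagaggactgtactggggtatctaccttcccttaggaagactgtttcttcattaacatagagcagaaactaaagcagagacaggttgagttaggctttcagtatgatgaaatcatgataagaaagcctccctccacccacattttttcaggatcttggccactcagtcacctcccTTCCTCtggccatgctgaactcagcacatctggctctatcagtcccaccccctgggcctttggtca
Clec4f (chr6:83656188-83656366, minus strand): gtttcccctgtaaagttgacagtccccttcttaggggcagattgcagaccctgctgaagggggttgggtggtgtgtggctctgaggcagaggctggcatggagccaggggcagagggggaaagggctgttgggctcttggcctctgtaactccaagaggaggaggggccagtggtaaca
Ly6c2, Marco and Cd5l held 1 match each, that of Cd5l on the opposite strand. Neither Lyz2 nor Clec4f held one, and Vsig4, which did not pass in male liver, held 2. None of these windows held TTGCNNAA, a pattern of the myeloid factors C/EBP. Among 32851 promoters of 250 bases, 23.3% held GAGGAA and 9.56% held TTGCNNAA. The matches describe letters in these windows and set no gene that rose apart from those that did not.

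Under vehicle, the resident markers were higher in liver and the general or recruited ones in fat. Each of the 4 resident markers that passed the filter in both organs was higher in liver than in WAT, and each of the 4 general or recruited markers was higher in WAT, by edgeR's quasi-likelihood test over both sexes with Benjamini-Hochberg adjustment (the adjusted p throughout, unless another tool is named). As 84.0% of 19135 genes differed between the organs, that count by itself does not set the markers apart. Clec4f, a C-type lectin that binds glycans, passed the filter only through liver, so its levels are given without a test. On a scale common to all 46 libraries it averaged 131 ± 23.9 CPM (SD, n = 6) in liver and 0.144 ± 0.177 CPM (SD, n = 6) in WAT of vehicle females, and 61.2 ± 15.7 and 0.0844 ± 0.0675 CPM (SD, n = 5 each) in vehicle males. Cd5l, a secreted protein that keeps macrophages alive and binds IgM, had the largest tested difference among resident markers, log2 5.27, then Vsig4, the complement receptor CRIg, with 3.68. Marco, a scavenger receptor for bacteria, differed by 2.41 and Timd4, a receptor for phosphatidylserine on dying cells, by 1.40. Lyz2, the lysozyme of myeloid cells, was lower in liver by log2 -3.38. Adgre1 (F4/80, the standard surface marker of mouse macrophages) was lower by -2.47, Csf1r (the receptor for the growth factors CSF1 and IL-34) by -1.99 and Ly6c2 (the Ly6C antigen of inflammatory monocytes) by -1.36. The value of Ly6c2 rests on a WAT level that is uncertain, since part of its sequence is shared with Ly6c1, which was far more abundant there.

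**Figure D1:**
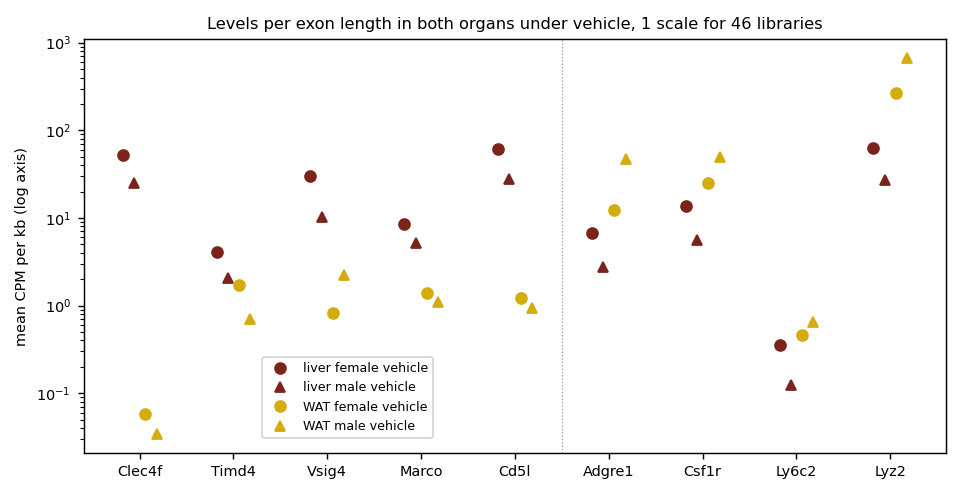
Mean level under vehicle in CPM per kilobase of exon (log axis) for the 9 markers in liver (dark red) and WAT (yellow), females as circles and males as triangles, on a scale common to all libraries. Left of the dotted line, the 5 resident markers lie higher in liver, and right of it the 4 general or recruited markers lie higher in WAT. In liver the female points lie above the male ones.

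Per kilobase of exon, the order of levels was similar in both sexes of vehicle liver. Levels in this paragraph were scaled within each organ, unlike those in the plot of mean levels in both organs. They rank genes within an organ and do not give differences between organs. Females had Lyz2 at 45.2, Cd5l at 45.1 and Clec4f at 38.6 CPM per kb at the top, with library ranges that overlapped, and then Vsig4 at 21.9, whose highest library reached the lowest of Clec4f. Csf1r (9.96), Marco (6.14), Adgre1 (4.92) and Timd4 (2.98) followed, each overlapping its neighbour, and Ly6c2 was far below at 0.262 CPM per kb. In males the same 3 genes led at 20.3 (Cd5l), 19.5 (Lyz2) and 18 (Clec4f), and Ly6c2 was again last at 0.0911. In vehicle WAT Lyz2 stood alone at 369 CPM per kb in females and 893 in males, followed by Csf1r (34.1 and 65.9) and Adgre1 (16.7 and 62.6). The resident markers other than Clec4f lay between 0.941 and 3.03 CPM per kb in WAT, with ranges that overlapped from one to the next. On the scale common to all libraries, Lyz2 of vehicle females was at 62.0 CPM per kb in liver and 270 in WAT. Timd4 of vehicle females was at 4.09 and 1.73 CPM per kb on that scale.

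Clec4f was close to absent from fat. Its counts in WAT ranged from 0 to 18 reads per library, and it was at 0 in 6 of 23 libraries. A count of 0 leaves room for up to 3 reads. The 4 libraries with most Clec4f, at 0.707, 0.649, 0.450 and 0.439 CPM, were also the 4 with the highest sums of hepatocyte markers, at 579, 307, 464 and 288 CPM. Clec4f per 1000 CPM of hepatocyte markers had a median of 0.738 in liver libraries (0.261 to 1.07) and of 1.22 in WAT libraries (0 to 8.66). The part of hepatic RNA in the WAT reads of Clec4f was not tested.

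Female livers carried more of these markers than male livers under vehicle. By adjusted p, 8 of 9 were higher in females, where the background was 19.3% higher and 36.7% in either direction. Vsig4 differed most, with 23.1 to 41.8 CPM in 6 female libraries (median 32.2) and 13.8, 14.2, 12.1, 6.86 and 8.34 CPM in the males, and a log2 difference of 1.55 (SE 0.282, adjusted p = 0.000184). The groups did not overlap. Ly6c2 was next at 1.52, and Adgre1 (1.30), Csf1r (1.27), Lyz2 (1.21), Cd5l (1.15), Clec4f (1.10) and Timd4 (1.00) followed closely. Without overlap between the sexes were 7 genes, all but Timd4 and Marco, against 9.05% of all genes higher in females. Marco did not pass (log2 0.71, SE 0.483, adjusted p = 0.263). Markers of some other cells were also higher in vehicle females, without overlap. The 8 T and NK cell genes summed to 2.88 to 7.97 CPM in females and 1.00 to 2.06 CPM in males, the 13 neutrophil genes to 4.41 to 6.19 and 1.92 to 4.22 CPM, and the 7 genes of sinusoidal endothelium to 224 to 339 and 183 to 219 CPM. The 6 hepatocyte genes overlapped, at 106335 to 121340 and 98056 to 112044 CPM. So did the sums of 14 further Kupffer genes (487 to 579 CPM in females and 463 to 604 in males) and of 6 peritoneal macrophage genes (80.4 to 108 and 81.0 to 106). Sums of 12 further monocyte genes (25.7 to 40.5 and 12.4 to 21.8 CPM) and 20 general macrophage genes (386 to 521 and 219 to 285) did not overlap. The part of other cells in the sex difference was not tested.

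In fat 4 markers were lower in vehicle females than in males and 1 was higher. The 3 abundant general markers were among the 4. Adgre1 had 30.9 to 91.8 CPM in females (median 52.6) and 280, 236, 125, 93.8 and 279 CPM in males, with no overlap (19.4% of all genes had none), and differed by log2 -1.91 (SE 0.407, adjusted p = 0.00175). Lyz2 differed by -1.28 (adjusted p = 0.00224) and Csf1r by -0.95 (adjusted p = 0.0105), both with overlapping libraries, and Csf1r missed the threshold without the libraries that held other-tissue markers (-0.92, adjusted p = 0.0550). Among resident markers Vsig4 was lower in females too (-1.42, adjusted p = 0.0135), though not past the threshold without male vehicle library 4 (-1.15, adjusted p = 0.0567). Timd4 went the opposite way: 3.52 to 7.70 CPM in females (median 4.62) against 2.05, 1.23, 3.26, 1.59 and 2.11 CPM in males, a log2 difference of 1.32 (SE 0.377, adjusted p = 0.0128). All females lay above all males for Timd4. Marco, Cd5l and Ly6c2 did not pass. The 6 genes of large peritoneal macrophages summed to 105 to 137 CPM in vehicle females and 59.8 to 81.9 CPM in vehicle males, and the 7 adipocyte genes to 28940 to 35434 and 21349 to 27356 CPM, both without overlap. Their part was not tested. In all, 5 of 8 tested markers passed, against 26.9% of all genes.

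In male liver 4 of the 9 markers rose under PTP-r, 2 from each class. Ly6c2, Marco, Lyz2 and Cd5l rose, and Clec4f, Timd4, Vsig4, Adgre1 and Csf1r did not pass although all 9 estimates were positive. The share higher among all genes was 5.23%, and 7.68% in either direction. The median log2 change was 0.60 over the resident markers, 0.98 over the general or recruited ones and 0.00 over all 15892 genes tested. DESeq2 and limma voom with quality weights passed the same 4 genes.

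Ly6c2 rose most, from very little. The male vehicle libraries (numbers 3, 4, 9, 10 and 12) had 0.226, 0.190, 0.235, 0.270 and 0.325 CPM, and the PTP-r libraries (1, 2, 5, 6, 7 and 11) had 0.471, 1.71, 1.09, 1.36, 0.846 and 0.767 CPM. Every PTP-r library lay above every vehicle library, as was so for 3.71% of all genes. The change was log2 2.03 (SE 0.362, adjusted p = 0.000780). It rests on 7 to 12 reads per vehicle library and 14 to 61 per PTP-r library.

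Lyz2 rose from 32.2, 30.1, 24.6, 15.4 and 26.2 CPM under vehicle to 38.4, 61.2, 76.2, 53.1, 67.3 and 78.1 CPM under PTP-r, in the same order of libraries. Here too the groups did not overlap, and the lowest PTP-r library, number 1, was close to the highest vehicle library. The change was log2 1.28 (SE 0.195, adjusted p = 0.000182), and it lay between 1.14 and 1.39 when any 1 liver library was left out.

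Cd5l had 57.9, 47.5, 40.8, 24.8 and 35.6 CPM under vehicle and 54.4, 66.7, 131, 48.9, 98.6 and 148 CPM under PTP-r. PTP-r libraries 1 and 6 fell within the vehicle range, and the other 4 lay above it. The change was log2 1.15 (SE 0.260, adjusted p = 0.00659). Marco had 8.95, 6.5, 6.24, 1.25 and 13.2 CPM under vehicle and 8.44, 23.0, 17.6, 10.1, 29.1 and 59.1 CPM under PTP-r. Libraries overlapped, and PTP-r library 11 held the most Marco. The change was log2 1.78 (SE 0.489, adjusted p = 0.0252). It missed the threshold without vehicle library 4 (1.74, adjusted p = 0.0609), vehicle library 9 (1.73, 0.0586), vehicle library 10 (1.5, 0.0521) or PTP-r library 11 (1.30, 0.0961), and in a fit of only the 2 male groups (1.77, 0.0725).

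The remaining resident markers varied widely among treated males. Clec4f had 39.8, 37.4, 89.5, 28.1, 62.0 and 94.3 CPM under PTP-r against 59.0, 50.4, 46.6, 32 and 34.7 CPM under vehicle. Libraries 5, 7 and 11 lay above the vehicle range and library 6 below it. The estimate was log2 0.40 (SE 0.249, adjusted p = 0.393), with a 95% interval of -0.09 to 0.89. Timd4 (0.60, interval 0.01 to 1.20, adjusted p = 0.264) and Vsig4 (0.57, 0.02 to 1.11, adjusted p = 0.250) had the same 3 libraries at the top. Adgre1 (0.67, adjusted p = 0.112) and Csf1r (0.61, adjusted p = 0.0937) missed the threshold as well, and Csf1r passed when PTP-r library 1 was left out (0.70, adjusted p = 0.0491).

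**Figure D2:**
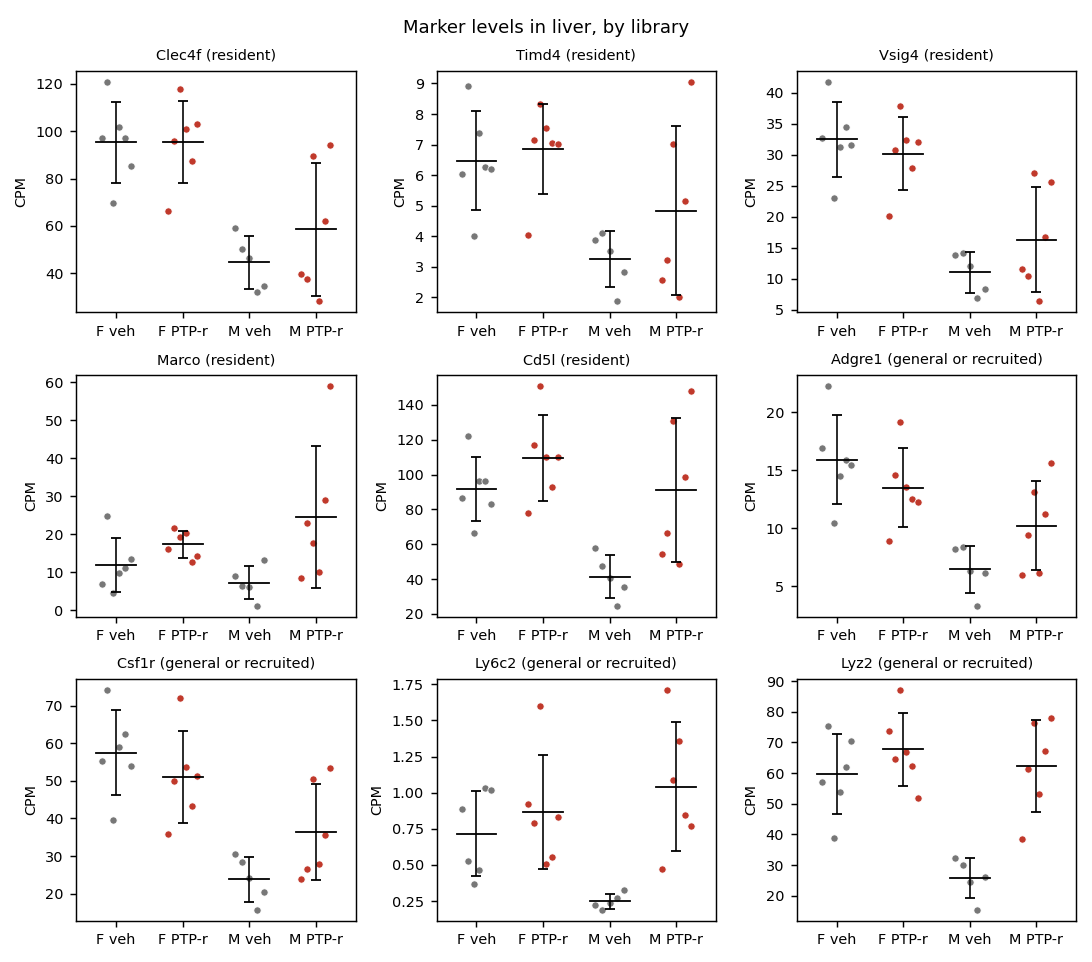
CPM of the 9 markers in each liver library, by sex (F, M) and treatment (vehicle grey, PTP-r red). Bars give the mean and 1 SD over 6 libraries, or 5 for male vehicle. For Lyz2 and Ly6c2 all treated males lie above all male controls, while Clec4f, Timd4 and Vsig4 spread across and beyond the control range.

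No marker passed in female liver. The count was 0 of 9 by edgeR, DESeq2 and voom alike, none had an unadjusted p under 0.05, and 0.164% of all genes passed by edgeR. Estimates ran from log2 -0.24 (Adgre1) to 0.55 (Marco). Lyz2 had 51.9 to 87.1 CPM (median 65.8) under PTP-r and 38.7 to 75.5 CPM (median 59.5) under vehicle, with an estimate of 0.18 and an interval of -0.17 to 0.54. Clec4f averaged 95.4 ± 17.4 CPM under PTP-r and 95.3 ± 17.1 CPM under vehicle (SD, n = 6 each), an estimate of 0.00 with an interval of -0.46 to 0.46. Marco had 12.6 to 21.8 CPM under PTP-r and 4.48 to 24.8 CPM under vehicle, and its interval, -0.33 to 1.43, was the widest.

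All 9 differences between the sexes' responses were negative, that is smaller in females, but 0 passed by edgeR, where 0.107% of genes did. Of the 9, 5 had an unadjusted p under 0.05. The interaction was log2 -1.10 for Lyz2 (SE 0.263, adjusted p = 0.0853) and -1.80 for Ly6c2 (SE 0.478, adjusted p = 0.107). DESeq2 passed both (adjusted p = 0.0104 and 0.0290), and voom passed neither. Leaving out female PTP-r library 5 (Lyz2 -1.18, adjusted p = 0.0471, and Ly6c2 -2.04, 0.0467) or male PTP-r library 1 (-1.20, 0.0227, and -1.94, 0.0480) passed both, and leaving out female vehicle library 6 passed Lyz2 alone (-1.19, 0.0399). The mean of both sexes holds the same male libraries and is no second test of them. By that mean the 4 genes that rose in males passed, against 5.18% of genes higher and 7.58% in either direction. Values were log2 1.16 for Marco, 1.13 for Ly6c2, 0.73 for Lyz2 and 0.70 for Cd5l. Marco did not pass without the libraries that held other-tissue markers (1.22, adjusted p = 0.0775), nor without female vehicle library 6 (1.08, 0.0513), male vehicle library 4 (1.14, 0.0543), male vehicle library 9 (1.14, 0.0529) or male PTP-r library 11 (0.92, 0.0687).

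**Figure D3:**
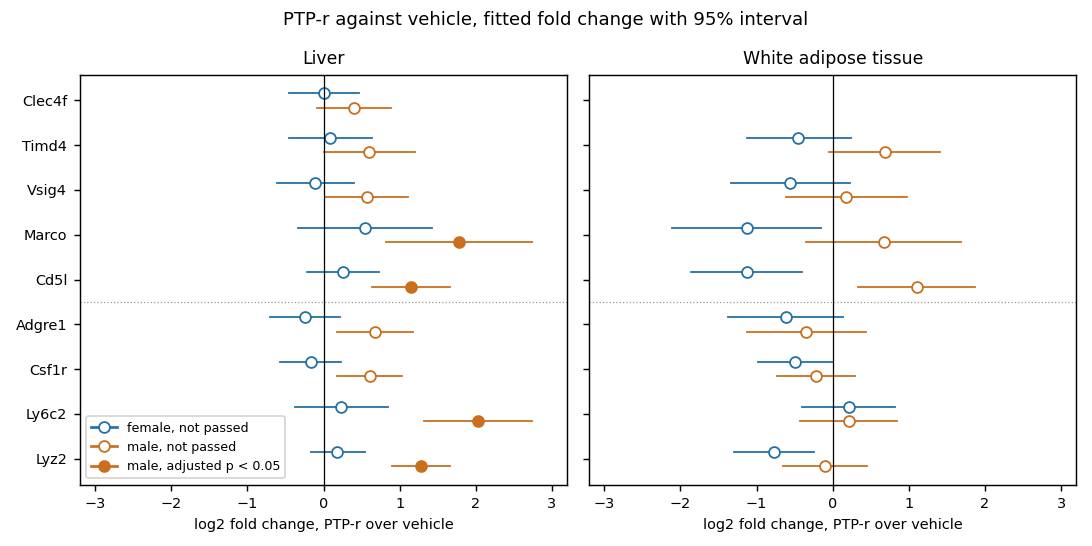
Fitted log2 fold change of PTP-r over vehicle with its 95% interval for each marker in liver (left) and WAT (right), females blue and males orange; filled points passed at an adjusted p under 0.05. Only Marco, Cd5l, Ly6c2 and Lyz2 in male liver are filled, and Clec4f has no point in WAT, where it was not tested.

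Ratios set markers against each other within a library. Those given were picked among 8 ratios with the values known and have no test. In log2 units, Cd5l over Clec4f lay between -0.37 and 0.04 in vehicle males and between 0.45 and 0.83 in treated males. In females it was -0.17 to 0.01 under vehicle and 0.08 to 0.36 under PTP-r. Treated and control libraries did not overlap in either sex. Clec4f over Lyz2 was 0.40 to 1.06 in vehicle males and -0.92 to 0.27 in treated males, again apart, but overlapped in females (0.27 to 0.92 and -0.15 to 0.99). Vsig4 over Clec4f overlapped between treatments in each sex and set the sexes apart under vehicle, at -1.71 to -1.43 in females and -2.22 to -1.82 in males.

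**Figure D4:**
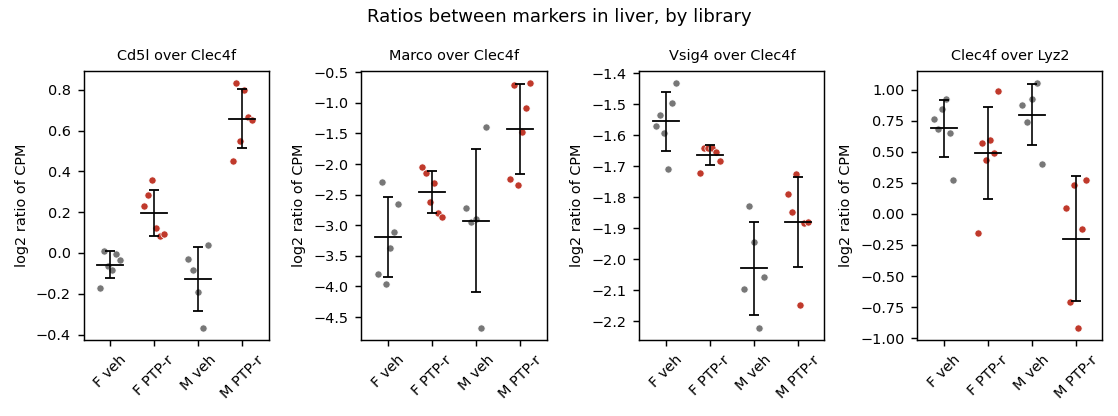
Log2 ratio of CPM between pairs of markers in each liver library, by sex and treatment (vehicle grey, PTP-r red), with mean and 1 SD. Cd5l over Clec4f separates treated from control libraries in both sexes, and Clec4f over Lyz2 does so in males. Marco over Clec4f and Vsig4 over Clec4f overlap between treatments in each sex. The pairs were picked with the values known.

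The classes as wholes did not separate. The mean log2 CPM of the 5 resident markers minus that of the 4 general or recruited ones was 1.22 ± 0.26 in vehicle males (SD, n = 5; 0.78 to 1.42) and 0.91 ± 0.53 in treated males (n = 6; 0.09 to 1.60). In females it was 1.05 ± 0.24 under vehicle and 1.23 ± 0.23 under PTP-r (n = 6 each). Each class held genes that rose and genes that did not pass.

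Other genes of these cells were counted in male liver from wider lists. Of 14 further Kupffer genes 2 rose: Spic, a transcription factor of iron-recycling macrophages, with log2 1.42 (SE 0.207), and Il18bp, which neutralizes interleukin-18, with 0.92 (SE 0.141). The list's median was 0.44. Of 12 further monocyte genes 11 were tested and 8 rose, with a median of 1.40. Ccr2, the chemokine receptor that lets monocytes leave bone marrow, had 1.03 to 1.79 CPM in vehicle males and 3.13 to 6.09 CPM in treated males, without overlap. Ms4a4c, a membrane protein of the tetraspanning MS4A family, changed by log2 2.33 and Plac8 and the integrin chain Itgal by 0.99 each. Of 20 genes common to macrophages or leukocytes 16 rose (median 0.99), among them Spi1, which encodes PU.1, by 1.20 and the protease Ctss by 1.16. These lists, like the members, were drawn up with earlier results known, and counts are read against the 5.23% of all genes that rose.

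Signals that feed or call macrophages were counted too. Of 12 such genes 10 were tested and 5 rose in male liver, against 5.23% of all genes. The monocyte chemokine Ccl7 rose by log2 2.69 from 0.0611 ± 0.0587 CPM (SD, n = 5) to 0.428 ± 0.191 CPM (n = 6). Csf1, the growth factor that acts through Csf1r, had 8.49 to 11.7 CPM in vehicle males and 12.8 to 16.9 CPM in treated males, a change of 0.67 (SE 0.124, adjusted p = 0.00121), and the GM-CSF receptor chain Csf2ra changed by 0.95. In female liver 1 gene of the monocyte list rose: Chil3, a chitinase-like protein of monocytes and neutrophils, from 0 to 0.127 CPM under vehicle to 0.377 to 0.841 CPM under PTP-r (log2 2.93, adjusted p = 0.0127). The monocyte chemokine Ccl2 rose there as well (1.34, adjusted p = 0.0400), 1 of 10 tested signals. Of all genes in female liver 0.164% passed in either direction. In male liver Ccl2 was among the signals that rose, by log2 2.41 (SE 0.294, adjusted p = 2.22e-05). None of the further Kupffer or macrophage genes passed in female liver.

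Markers of other cells changed in male liver too, where 5.23% of all genes rose and 7.68% passed in either direction. The 13 neutrophil genes summed to 1.92 to 4.22 CPM under vehicle and 5.75 to 8.46 CPM under PTP-r. All 5 of them that were tested rose, and the neutrophil marker Ly6g was at 0 in both male groups. The 9 B and plasma cell genes summed to 15.7 to 26.2 CPM under vehicle and 24.7 to 163 CPM under PTP-r, with library 11 highest, as for Marco, and 1 of 8 tested rose. The 8 T and NK cell genes summed to 1.00 to 2.06 and 2.02 to 4.39 CPM, and 3 rose. The 7 genes of sinusoidal endothelium summed to 183 to 219 CPM under vehicle and 125 to 167 CPM under PTP-r, and 5 fell. In females the neutrophil genes summed to 4.41 to 6.19 CPM under vehicle and 7.0 to 10.9 CPM under PTP-r. Of 5 tested there 1 rose, where 0.164% of all genes passed in either direction. The part of these cells in the changes of Lyz2 and Ly6c2, which neutrophils and other leukocytes also express, was not tested.

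In fat no marker passed in either sex. In females 0 of 8 passed by edgeR and by DESeq2, 3 had an unadjusted p under 0.05, and 1 passed by voom; edgeR called 0% of 17765 genes there (2909 at an unadjusted p under 0.05, 594 by DESeq2, 371 by voom). Of the 8 estimates, 7 were negative. Cd5l had 1.20 to 1.77 CPM under PTP-r (median 1.51) and 2.27 to 4.14 CPM under vehicle (median 3.42), without overlap, as for 0.771% of genes. Its estimate was log2 -1.13 (SE 0.374, adjusted p = 0.144). Marco had the same estimate, -1.13, with a larger error (SE 0.500, adjusted p = 0.268) and overlapping libraries. Lyz2 had 195 to 364 CPM under PTP-r and 288 to 684 CPM under vehicle, an estimate of -0.77 (SE 0.269, adjusted p = 0.168), and was the gene that voom passed (-0.81, voom adjusted p = 0.0403).

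In male fat 0 of 8 markers passed by edgeR, DESeq2 or voom, and 1 had an unadjusted p under 0.05, where 0.873% of genes passed by edgeR. Cd5l had 3.52, 1.60, 2.37, 0.882 and 4.55 CPM under vehicle and 5.09, 3.49, 2.04, 4.01, 13.4 and 5.32 CPM under PTP-r, an estimate of 1.10 (SE 0.392, adjusted p = 0.124). PTP-r library 7 was far above the others there, and it was also highest for Marco (16.6 CPM), Vsig4 (11 CPM), Timd4 (7.15 CPM) and Ly6c2 (5.97 CPM). The same library had the highest sums of B and plasma cell genes (3537 CPM, where the other 5 had 691 to 1395), T and NK cell genes (70.3 CPM, others 8.61 to 12.7) and genes of large peritoneal macrophages (146 CPM, others 70.7 to 114). Their part in its marker levels was not tested. Without it the male estimates turned from 0.67 to -0.46 for Marco, from 0.18 to -0.22 for Vsig4 and from 0.21 to -0.19 for Ly6c2, and those of Cd5l and Timd4 went from 1.10 to 0.61 and from 0.68 to 0.27. None of these passed.

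**Figure D5:**
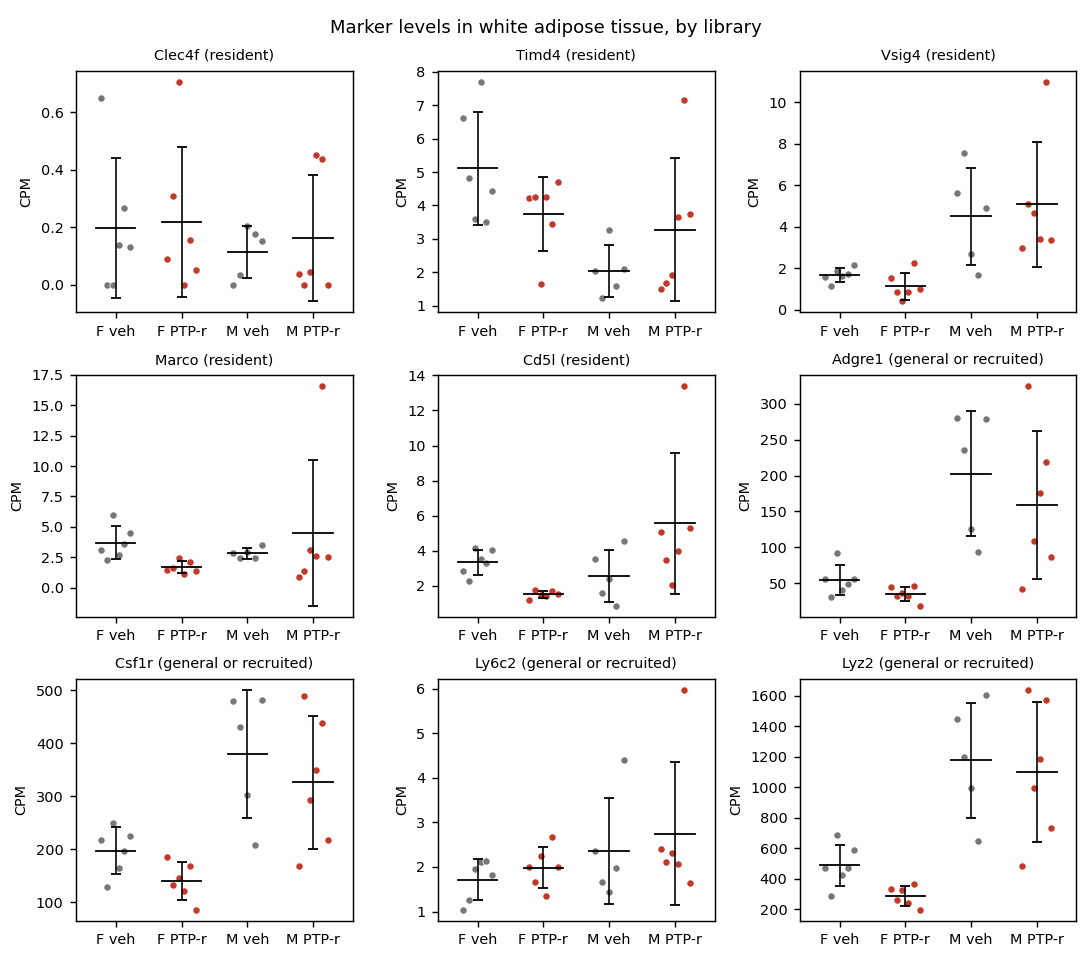
CPM of the 9 markers in each WAT library, by sex (F, M) and treatment (vehicle grey, PTP-r red), with mean and 1 SD over 6 libraries, or 5 for male vehicle; bars that reach below 0 reflect an SD above the mean. One treated male library stands above the rest for Vsig4, Marco, Cd5l and Ly6c2, and Cd5l of treated females lies below that of control females.

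Over both sexes 0 of 8 markers passed in WAT by edgeR and by DESeq2, with 1 at an unadjusted p under 0.05 by edgeR, against 7.08% of genes called. The largest estimates were -0.48 for Adgre1 (adjusted p = 0.261) and -0.43 for Lyz2 (adjusted p = 0.154), and voom passed Lyz2 (-0.48, voom adjusted p = 0.0490). Without male PTP-r library 7 Marco passed, at -0.79 (adjusted p = 0.0346), where it was -0.23 with all libraries. The sexes' responses in WAT differed most for Cd5l, by log2 -2.23 (female minus male, SE 0.542), which did not pass by edgeR (adjusted p = 0.220) and passed by DESeq2 (-2.22, adjusted p = 0.0177). By edgeR 0 of 8 and 0% of genes passed that interaction, with 3 of 8 at an unadjusted p under 0.05, and voom passed 0. From the wider lists, Ccr2 (-0.65, adjusted p = 0.0360) and the transcription factor gene Irf8 (-0.65, adjusted p = 0.0484) fell over both sexes, 1 of 12 monocyte and 1 of 20 macrophage genes. So did the complement gene C6 (-0.71, adjusted p = 0.0432), 1 of 13 further Kupffer genes tested. These counts lie near the 7.08% of all genes called in either direction and do not set the lists apart.

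Responses in the organs were compared in a fit of all 46 libraries. The response of Lyz2 over both sexes was higher in liver than in WAT by log2 1.14 (SE 0.244, adjusted p = 0.00446), 1 of 9 markers, where 5.39% of genes passed. It passed whichever library was left out (1.07 to 1.22). Marco (1.38, adjusted p = 0.0998), Ly6c2 (0.92, adjusted p = 0.0872) and Cd5l (0.70, adjusted p = 0.210) did not pass, but did so without WAT male PTP-r library 7, at 1.93 (adjusted p = 0.00498), 1.11 (0.0204) and 0.93 (0.0411). Timd4, Vsig4, Adgre1 and Csf1r did not pass. Clec4f did not pass either, but it entered this fit through its liver reads. With the few WAT reads given above, the fit cannot decide whether its response differed between organs.

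Within groups, most liver markers varied together from library to library. After each group's mean was removed, the log2 CPM of Clec4f over 23 liver libraries was most like that of Vsig4 (Pearson r = 0.98, Spearman rho = 0.95), Cd5l (0.96) and Timd4 (0.96) among 12455 genes with a mean of at least 1 CPM. Cd5l was most like the complement genes C1qc (0.97) and C1qb (0.96), Adgre1 most like Adgre4 (0.96), and Csf1r most like Sdc3 (0.99). Marco stood apart from its class. Its correlation with Clec4f was 0.58 and with Lyz2 0.82, and the genes most like it were Pou2f2 (0.92), Siglece (0.91) and Cd44 (0.88). Lyz2 was most like Tmsb4x (0.93), Wfdc17 (0.91) and Abi3 (0.91), and correlated with Clec4f at 0.63. Ly6c2 averaged under 1 CPM in liver and was not ranked. These values describe libraries that share their group means and depth, and leaving out the 2 libraries farthest from a gene's median kept each r named here, for the 3 most like genes, at 0.87 or above.

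In WAT 3 general markers varied together, and Ly6c2 and the resident markers did so less. Pairs of Adgre1, Csf1r and Lyz2 had r of 0.96 to 0.97, and Ly6c2 had 0.35 with Adgre1, 0.40 with Csf1r and 0.48 with Lyz2. Adgre1 was most like Rab8b (0.99), Csf1r most like Lyz2 (0.97), and Lyz2 most like Unc93b1 (0.98), over 23 libraries and 14892 genes. Pairs of the 4 resident markers tested there had r between 0.29 and 0.54, where the 10 pairs in liver had 0.58 to 0.98. Reads were fewer in WAT, which by itself can lower r. In treated females Vsig4 had 10 to 57 reads per WAT library and 477 to 1853 per liver library, and Timd4 42 to 117 and 96 to 405. The part of depth was not tested. Marco in WAT was most like H2-Ob (0.87) and Fcer2a (0.87), genes of B cells, and Ly6c2 like Ms4a4b (0.89) and Lck (0.85), genes of T cells. Without male PTP-r library 7 these fell to 0.68, 0.67, 0.83 and 0.79, and without the 2 libraries farthest from the median to 0.74, 0.76, 0.74 and 0.67. Timd4 (most like Pcdhga8, 0.75), Vsig4 (Cenpa, 0.81) and Cd5l (Padi4, 0.79) had no gene with r above 0.81.

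Lyz2 and Ly6c2 each have a relative that shares part of their exon sequence and can take or lend reads. Of the 50-base words in Lyz2 exons 15.4% also occur in Lyz1, and of those in Ly6c2 13.9% occur in Ly6c1. For words of 100 bases the shares were 1.97% and 5.81%. In liver Lyz1 stayed at 1.01 CPM or below, and the estimate for Ly6c1 in male liver was log2 0.50 (SE 0.525, adjusted p = 0.664). In WAT Ly6c1, which endothelial cells also express, had 85.9 to 151 CPM where Ly6c2 had 1.04 to 5.97 CPM.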

How the data were processed

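Per the labels, polyA RNA was extracted with a column kit from liver and WAT. The aligner STAR 2.4.0i, the counter HTSeq and the mm10 build are named per the submitters' processing notes; the sources used here give no other settings. The authors deposited raw counts per gene and library, in 1 unstranded and 2 stranded columns. Column 4 was used, which held 95.97% to 96.48% of both stranded columns. Totals that name no gene, 18.42% to 28.92% of a library, were left out, among them reads mapping to several places. Of 55487 identifiers, 55227 matched GENCODE M21, on GRCm38, the same build as mm10.

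Computed here: edgeR 4.0.16 (R 4.3.3) fitted the 4 groups of an organ jointly (trimmed mean scaling, quasi-likelihood F test, 2-sided; minimum count 10, minimum total 15), and both organs together for organ contrasts; Benjamini-Hochberg adjusted p under 0.05 passed. Levels are CPM with that scaling. Intervals are 1.96 SE. Alternatives were DESeq2 1.42.0, voom with quality weights (limma 3.58.1), DESeq2 size factors, 2 other filters, unstranded counts, numbers in the titles or labels as a term or block, fewer groups, and leaving out libraries. Libraries with other-tissue markers had a sum of muscle, pancreas, epididymis or B and plasma cell genes above 50 CPM and above 4 times the organ's median. In simulated liver females (15699 genes) 76% of 1.5-fold and 96% of 2-fold changes were recovered with 5 false among 189 calls. In simulated WAT males (17652 genes) these were 62% and 68%, with 6 false among 153. Changed genes were drawn from those averaging over 1 CPM, so Ly6c2 in liver was not covered. The real female liver comparison had 26 calls, and with fewer calls a gene needs a smaller p to pass. The recovery therefore does not exclude such changes in markers that did not pass there. No 2 libraries of a group agreed within sampling noise in 110 pairs (lowest chi-square per degree of freedom 12.5).

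Named genes are the 9 members, up to 4 passing genes per direction from each list, the 3 genes most like a member within groups (at least 1 CPM), and the relatives Lyz1 and Ly6c1; the text prints some of them. Members and lists were chosen with earlier results of these data known.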

Additional observations from a re-analysis of the deposited data

Results flagged for a closer look

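A gap test for samples far from the others in their group was run on 72 groups of values, of which chance marks about 1 in 20. In WAT, male PTP-r library 7 was marked as highest for Marco (16.6 CPM, next 3.10), Cd5l (13.4 CPM, next 5.32), Vsig4 (11 CPM, next 5.08) and Ly6c2 (5.97 CPM, next 2.4). The same library had the highest sums of lymphocyte and peritoneal macrophage genes, whose part was not tested. In liver, female PTP-r library 1 was marked as lowest for Timd4 (4.04 CPM, next 7.02); it is one of the libraries with markers of other tissues. The response of Lyz2 to PTP-r differed between organs, by log2 1.14 (liver minus WAT, adjusted p = 0.00446).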

How the results depend on the processing

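Of 960 marker results under alternatives other than leaving out 1 library, 922 kept their direction and side of the threshold, 7 lost and 6 gained a call and 25 changed sign; the causes were not tested. Counts of markers called over sexes moved from 4 to 1 in liver and from 1 to 2 for liver minus WAT with the labels' numbers as a replicate block, from 0 to 2 (liver) and 0 to 1 (WAT) for female minus male with DESeq2, and from 0 to 1 in WAT females and over sexes with voom. The numbers do not pair libraries: 0 of 5 pairs in liver and 1 of 5 in WAT correlated above 0.1. With the block Marco in male liver was 1.69 (adjusted p = 0.195), and over sexes Marco was 1.09 (0.273), Cd5l 0.43 (0.214) and Ly6c2 1.08 (0.0652), while Marco passed for liver minus WAT (1.73, 0.0296).

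All changes of sign were of uncalled values. In female liver Clec4f was -0.38, Timd4 -0.30 and Cd5l -0.09 with the replicate block, and Clec4f -0.01 without the filter and 0.00 with DESeq2, its size factors or unstranded counts. Over sexes in liver the block gave Clec4f -0.11 and Vsig4 -0.09. In male WAT voom gave Vsig4 -0.03 and Ly6c2 0.00. Cd5l over sexes in WAT was 0.12 without libraries with other-tissue markers, 0.00 with title numbers as a term and 0.06 with the block. For female minus male in WAT the block gave Adgre1 0.13 and Ly6c2 0.30; Ly6c2 was also 0.01 with DESeq2, its size factors and the 1 CPM filter, 0.16 with voom, 0.02 without the filter and 0.12 without the marked libraries. For liver minus WAT Clec4f was 0.03 with voom and 0.62 without the marked libraries, and Timd4 -0.04 without them.

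Leaving out 1 library at a time, the counts ranged from 0 to 2 for female minus male in liver, 0 to 1 over sexes in WAT and 1 to 4 for liver minus WAT. Values that changed sign ranged in female liver from -0.07 to 0.09 (Clec4f), -0.02 to 0.20 (Timd4) and -0.01 to 0.37 (Ly6c2). In male WAT they ranged from -0.22 to 0.45 (Vsig4), -0.46 to 0.87 (Marco), -0.19 to 0.56 (Ly6c2) and -0.25 to 0.05 (Lyz2). Over sexes in WAT they ranged from -0.08 to 0.23 (Timd4) and -0.26 to 0.14 (Cd5l), for female minus male in WAT from -0.47 to 0.06 (Adgre1) and -0.36 to 0.40 (Ly6c2), and for liver minus WAT from -0.49 to 0.30 (Clec4f). Depth limits Clec4f in WAT and Ly6c2 in liver most.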
